A study of Homo sapiens with 6 samples.

Results

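The unfolded protein response genes described here are 33 named genes of the endoplasmic reticulum (ER) stress pathway, taken by symbol and split by role into 3 sensors, 8 genes of the PERK-ATF4 branch, 9 of the IRE1-XBP1 branch, 10 of the ATF6 branch and 3 folding genes given no branch. Each gene was read by its brightest probe set among those annotated to 1 gene symbol, which gave a value for 32 of the 33 genes, among 19775 genes read in all. The remaining gene, SYVN1, was not read, since its probe set carries more than 1 symbol. They were measured in human umbilical vascular endothelial cells (HUVECs), primary cells from the lining of the umbilical cord vessel, grown in endothelial medium with serum, growth factors and hydrocortisone. Cells received an siRNA of 1 sequence against ANRIL (ANRIL siRNA, 3 arrays) or a scrambled siRNA (control siRNA, 3 arrays), each transfected transiently with the same non-liposomal reagent. The long noncoding RNA ANRIL (CDKN2B-AS1 in the annotation) comes from the CDKN2A and CDKN2B locus, and the design asked which genes respond when it is targeted. The labels name 3 sets per siRNA without saying whether these were separate donors or cultures, so p-values measure only the spread between these samples.

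The unfolded protein response adjusts the folding capacity of the ER to its load of secretory and membrane proteins. IRE1 (ERN1) splices the XBP1 transcript, PERK (EIF2AK3) phosphorylates the initiation factor eIF2 and so favours translation of ATF4, and ATF6 is cut in the Golgi to release a transcription factor. XBP1 and ATF6 act on genes for chaperones, disulfide isomerases and ER-associated degradation, ATF4 on genes for amino acid supply and for stress feedback, and many targets respond to more than one branch. Endothelial cells secrete large amounts of von Willebrand factor and matrix and carry a well-developed ER.

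The ER stress element (ERSE) is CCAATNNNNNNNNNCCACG, bound by the factor NF-Y together with ATF6 or XBP1. Its compact form ERSE-II is ATTGG followed after 1 base by CCACG. Both were searched on both strands in RefSeq promoter windows (GRCh38.p14) that run from 250 bases before to 50 bases after each start and were matched for 31 of the 33 genes. At least 1 of these elements was present in 10 of those 31 genes (32.3%), against 44 of all 27305 genes with a window (0.161%), and the 10 are themselves among the 44. The 33 genes were listed by textbook roles in this response, so these shares describe the list and are not a test. ERSE alone was found in 7 members (22.6%, against 0.0916% of all genes) and ERSE-II in 3 (9.68%, against 0.0696%). The ATF6 branch held 7 of the 10 genes, in HSPA5, HSP90B1, HYOU1, SDF2L1, CRELD2, HERPUD1 and CALR, the IRE1-XBP1 branch 2, in XBP1 and PDIA6, and CANX was the last. In CANX the windows of 3 of its 4 starts contain the element.

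The promoter stretches below show the element in some of these genes, written 5′ to 3′ on the gene's strand with the fixed letters of each element in capitals. HSPA5, which encodes the ER chaperone BiP, is shown for the 250 bases before its start (chr9:125241344-125241593, minus strand), with the ERSE at bases −66 to −48. HSP90B1, which encodes the chaperone GRP94, has 2 copies of ERSE (chr12:103930204-103930351, plus strand), the second in reverse orientation. CALR (chr19:12938372-12938414, plus strand), CANX (chr5:179698766-179698808, plus strand) and XBP1 (chr22:28800591-28800633, minus strand) have ERSE, reversed in CALR. SDF2L1 (chr22:21642102-21642136, plus strand) has a reversed ERSE-II.
HSPA5: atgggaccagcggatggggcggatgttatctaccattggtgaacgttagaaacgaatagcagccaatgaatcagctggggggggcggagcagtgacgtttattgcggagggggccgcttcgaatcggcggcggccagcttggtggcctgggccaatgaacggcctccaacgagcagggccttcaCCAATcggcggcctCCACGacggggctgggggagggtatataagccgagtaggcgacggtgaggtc
HSP90B1: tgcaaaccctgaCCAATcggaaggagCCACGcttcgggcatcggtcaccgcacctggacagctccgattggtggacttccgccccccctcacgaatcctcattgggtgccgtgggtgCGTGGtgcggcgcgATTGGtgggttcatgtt
CALR: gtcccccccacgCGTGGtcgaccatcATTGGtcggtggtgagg
CANX: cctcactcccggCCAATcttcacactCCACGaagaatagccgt
XBP1: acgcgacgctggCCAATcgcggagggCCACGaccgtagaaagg
SDF2L1: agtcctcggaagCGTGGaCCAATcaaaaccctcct

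For the PERK-ATF4 branch a different element was searched, the C/EBP-ATF response element bound by ATF4 with C/EBP partners, as TGATGNAA on both strands. None of the 8 PERK-ATF4 genes had ERSE or ERSE-II, and 3 of them, ATF3, CHAC1 and ASNS, had TGATGNAA. Over all members it was found in 4 of 31 (12.9%), the last being HERPUD1, against 4.46% of all genes. The stretches of CHAC1 (chr15:40953250-40953281, plus strand, element reversed) and HERPUD1 (chr16:56931954-56932047, plus strand, with both kinds of element) are given with the same use of capitals. The UPR element TGACGTGG, whose match in HYOU1 overlaps an ERSE-II, was in 2 of 31 members (6.45%, against 0.927% of all genes). A match describes these letters in these windows and does not show that a factor binds there.
CHAC1: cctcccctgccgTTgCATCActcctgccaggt
HERPUD1: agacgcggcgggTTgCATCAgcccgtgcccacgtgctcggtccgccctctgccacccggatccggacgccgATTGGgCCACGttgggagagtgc

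All values are RMA log2 intensities as deposited. A difference is the ANRIL siRNA mean less the control siRNA mean on that scale, tested with limma and adjusted by Benjamini-Hochberg over all 19775 genes. In bulk RNA, fewer cells of a kind and less RNA per cell cannot be told apart. Pairs of arrays had r = 0.9964 to 0.9977 over probe sets, a description in which probe sets do not count as replicates. The ANRIL probe set lay near the floor, at 3.69, 4.05 and 4.05 with ANRIL siRNA and 4.08, 4.05 and 3.95 with control siRNA, so these arrays give no check of the knockdown. All 8 endothelial markers read (such as PECAM1, CDH5 and VWF) lay at or above percentile 91.1 of signal. Of the markers of other cells, the 5 fibroblast markers ranged from percentile 1.44 (LUM) to 78.1 (COL1A1), and the 5 smooth muscle markers from 37.6 (CNN1) to 87.0 (ACTA2). The 4 leukocyte markers read ranged from 7.90 (PTPRC) to 55.6 (CD3E), and the 4 epithelial markers from 8.82 (CDH1) to 43.8 (KRT5). The endothelial markers were below 0 at 8 of 8 (median −0.14), as were 87.7% of the 1978 brightest genes. Fibroblast markers were below 0 at 4 of 5 and smooth muscle markers at 3 of 5. Epithelial markers were below 0 at 2 of 4 and leukocyte markers at 1 of 4. Against the median of the genes nearest in mean signal, 7 of 8 endothelial markers lay lower (median −0.09 over the 8). Fibroblast markers did so at 4 of 5, smooth muscle markers at 3 of 5. Epithelial markers did so at 4 of 4 and leukocyte markers at 1 of 4. The part of these markers in the results below was not tested. As a sign of RNA quality, the 3′ signal of ACTB was higher than its 5′ signal by 0.78, 0.81 and 0.56 with ANRIL siRNA and by 0.56, 0.59 and 0.49 with control siRNA (exact permutation p = 0.2, two-sided, the smallest attainable being 0.1). For GAPDH the same quantity was 0.0461, 0.0913 and 0.0353 with ANRIL siRNA and −0.0101, 0.0125 and −0.0063 with control siRNA, so that the groups did not overlap (exact permutation p = 0.1, two-sided, the smallest attainable). The part of RNA quality in these results was not tested either.

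No unfolded protein response gene passed the test between ANRIL siRNA and control siRNA. The 32 genes split evenly, 16 above and 16 below 0, with a median difference of 0.01, and single differences ran from −0.21 (HSP90B1) to 0.18 (CHAC1). The smallest adjusted p was 0.186. The limma fit called 0 of all 19775 genes too (0% called), while 2 of the 32 members (6.25%) had an unadjusted p under 0.05, against 18.0% of all genes. These were CHAC1, higher as were 9.83% of all genes, and PPP1R15A, lower as were 8.16%. With the fit confined to the 9887 genes above the median signal, 441 were higher and 1972 lower at that p. The groups did not overlap at 5 members (15.6%), against 23.4% of all genes, with CHAC1, HSPA5 and CANX higher (10.6% of all genes) and PPP1R15A and HSP90B1 lower (12.8% of all genes). The outer 95% limits over the 32 members were −0.45 and 0.35, that is 1.37-fold lower and 1.27-fold higher.

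**Figure D1:**
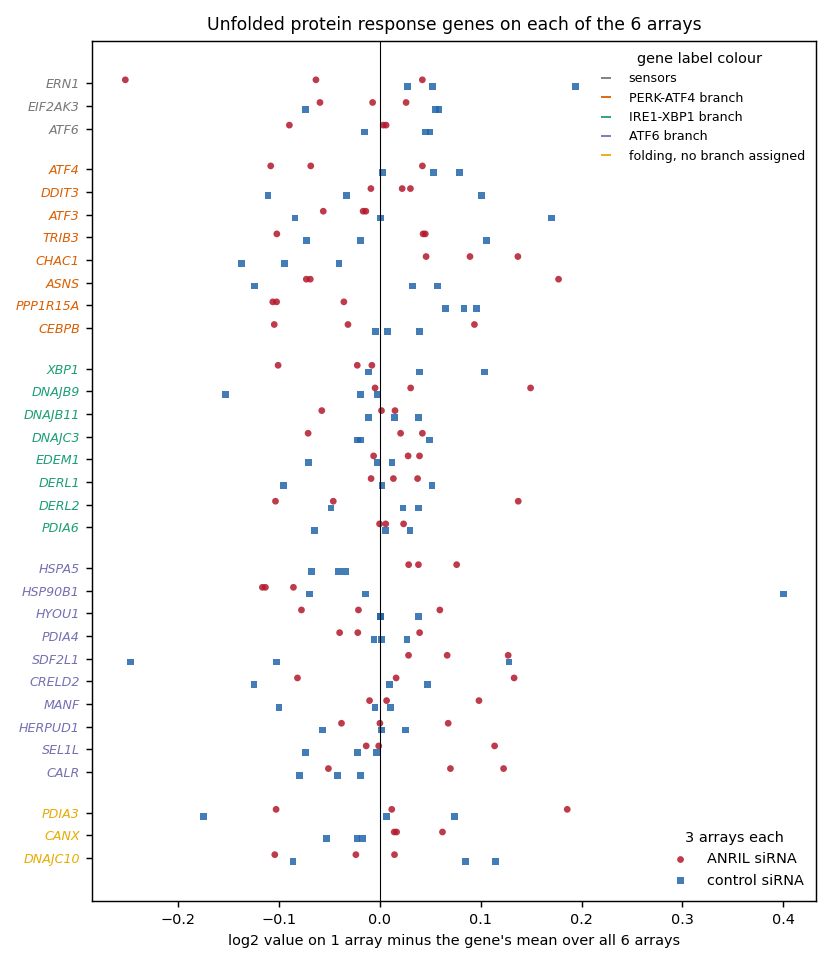
Log2 value of each of the 32 genes read (rows, by branch) on each array minus the gene's mean over all 6 arrays (x axis), with ANRIL siRNA as circles and control siRNA as squares, 3 arrays each. Most rows overlap, and only CHAC1, PPP1R15A, HSPA5, HSP90B1 and CANX separate the groups. For HSP90B1 the control siRNA replicate 1 value lies far from the other 5.

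The direction in which these genes are seen to stand depends on the signal scale, because bright genes as a whole lay lower with ANRIL siRNA. Of the 1978 brightest genes, 12.3% lay above 0, with a median of −0.07, whereas over all genes 48.7% did, with a median of −0.00463. The members are bright, with a median percentile of signal of 93.6, the lowest being CHAC1 at 56.8. Each member was therefore also set against the 500 genes nearest to it in mean signal, members left out. Against these genes of like brightness 27 of 32 members stood higher, by a median of 0.07, and 14 of the 32 exceeded more than 90% of their 500 neighbours while 2, HSP90B1 and ERN1, lay below more than 90% of theirs. After cyclic loess normalization, which removes most of the trend with signal, 27 members lay above 0 and 5 below, with a median of 0.08. The comparison by like brightness takes out the same trend, so the 2 results are not separate support. On that scale 53.7% of all genes and 56.6% of the 1978 brightest lay above 0. In the brightest of 50 bins of signal the median of all genes was 0.04. The 500 neighbours of HSPA5 and of CANX then had medians of 0.03 and 0.02. After quantile normalization was repeated on the probe set values, the split was 28 above and 4 below, where 44.8% of all genes lay below 0. These are descriptions of the group with no test, and no member passed the limma test with the constant prior on either scale.

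**Figure D2:**
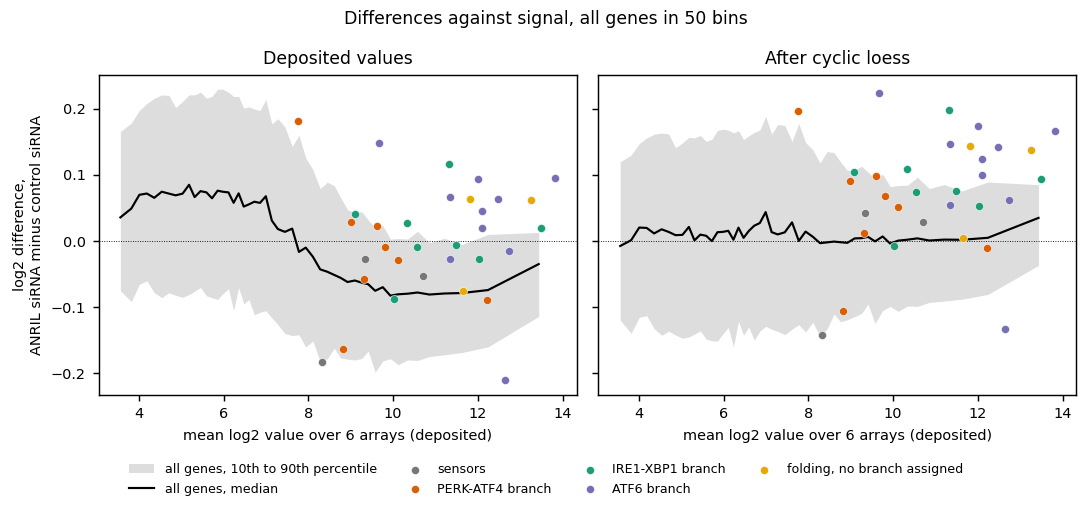
Log2 difference, ANRIL siRNA minus control siRNA, against mean log2 value over 6 arrays, in the deposited values (left) and after cyclic loess (right). The line and band give the median and the 10th to 90th percentile of all genes in 50 bins of signal, and points are the 32 members by branch. On the left bright genes lie below 0 and most members lie around 0 above that line, and on the right 27 of 32 members lie above 0.

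With an intensity-trended robust prior in place of the constant one, 0 of the 32 members passed in the deposited values, where 115 genes (0.582%) passed as higher and 426 (2.15%) as lower. When the trended prior was combined with cyclic loess, a setting chosen after the data had been seen, 4 members rose and none fell, against 0.298% of all genes called higher and 0.379% called lower. They were HSPA5 (0.17 ± 0.03, SE, n = 3 per group, limma adjusted p = 0.0125), CANX (0.14 ± 0.03, limma adjusted p = 0.0253), DNAJB9 (0.20 ± 0.04, limma adjusted p = 0.0365) and CALR (0.17 ± 0.04, limma adjusted p = 0.0373). After cyclic loess the dimmer probe sets of HSPA5 and DNAJB9 were above 0 too. Those of CANX stood at −0.05, 0.05, −0.06 and −0.07, and those of CALR at 0.22 and −0.20. These 4 calls fell to 0 without ANRIL siRNA replicate 1 and without control siRNA replicate 2, to 1 without ANRIL siRNA replicate 3, and to 2 without ANRIL siRNA replicate 2 or control siRNA replicate 1. There were 5 without control siRNA replicate 3, when DNAJB9, HSPA5, SDF2L1, MANF and CANX passed. The calls over all 19775 genes moved too, with 59 higher on all 6 arrays. There were 5, 74 and 14 higher without ANRIL siRNA replicates 1, 2 and 3, and 45, 0 and 71 higher without control siRNA replicates 1, 2 and 3.

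The 3 sensors were all below 0 in the deposited values, and none passed. ERN1, the kinase and endonuclease IRE1, had 8.26, 8.37 and 8.07 with ANRIL siRNA and 8.35, 8.52 and 8.38 with control siRNA. Only the value of ANRIL siRNA replicate 2 overlapped the control siRNA range, with a difference of −0.18 ± 0.08 (SE over 3 arrays per group, limma adjusted p = 0.286, 95% interval −0.37 to 0.00). Its 500 neighbours in signal had a median of −0.04, and 8% of them lay lower than ERN1. The other 2 ERN1 probe sets, both dimmer, differed by 0.04 and 0.06, so that the sign was not shared within the gene. EIF2AK3, the kinase PERK, had 9.37, 9.34 and 9.28 with ANRIL siRNA and 9.27, 9.40 and 9.40 with control siRNA (−0.03 ± 0.06). ATF6 had 10.71, 10.70 and 10.61 with ANRIL siRNA and 10.69, 10.75 and 10.75 with control siRNA (−0.05 ± 0.06), and all 4 of its probe sets were below 0. The values of EIF2AK3 and ATF6 overlapped between the groups, and both genes lay 0.03 and 0.02 above their neighbours in signal.

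The PERK-ATF4 branch held the largest differences relative to their error in both directions. CHAC1, an ATF4 target that degrades glutathione, had 7.80, 7.89 and 7.85 with ANRIL siRNA and 7.72, 7.66 and 7.62 with control siRNA. All 3 ANRIL siRNA arrays were above all control siRNA arrays, with a difference of 0.18 ± 0.06, or 1.13-fold (limma adjusted p = 0.186, 95% interval 0.05 to 0.31). CHAC1 was read by 1 probe set, exceeded 93.8% of its neighbours in signal, and had a difference between 0.13 and 0.23 under the alternatives run. PPP1R15A encodes GADD34, the stress-induced subunit of the phosphatase that reverses eIF2 phosphorylation. It had 8.71, 8.72 and 8.78 with ANRIL siRNA and 8.90, 8.88 and 8.91 with control siRNA, so that the groups did not overlap and the ANRIL siRNA arrays were lower. Its difference was −0.16 ± 0.06, or 1.12-fold lower (limma adjusted p = 0.199, 95% interval −0.29 to −0.04), or −0.10 against its neighbours, and its dimmer probe set differed by −0.09.

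The other 6 genes of the branch overlapped between the groups, with differences between −0.09 and 0.03. ATF4, the transcription factor itself, had 12.14, 12.25 and 12.10 with ANRIL siRNA and 12.21, 12.29 and 12.26 with control siRNA (−0.09 ± 0.06), and lay −0.01 from its neighbours in signal. DDIT3, the pro-apoptotic factor CHOP downstream of ATF4, had 8.99, 9.03 and 9.02 with ANRIL siRNA and 8.89, 9.10 and 8.96 with control siRNA (0.03 ± 0.07). The ANRIL siRNA values thus lay inside the control siRNA range, and the 95% interval of −0.12 to 0.18 bounds the difference. ATF3, a stress-induced repressor (−0.06 ± 0.07), TRIB3, a pseudokinase that feeds back on ATF4 (−0.01 ± 0.07), CEBPB, a C/EBP partner (−0.03 ± 0.07), and ASNS, asparagine synthetase (0.02 ± 0.08), overlapped as well. ASNS spread widely within both groups, at 9.53, 9.78 and 9.54 with ANRIL siRNA and 9.48, 9.66 and 9.64 with control siRNA. The branch had a median of −0.02, with 3 of 8 above 0, and 6 of 8 above their neighbours in signal by a median of 0.06.

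The IRE1-XBP1 branch had 4 of 8 genes read above 0 and a median of 0.01. XBP1 is the transcript that IRE1 splices, and its splicing was not measured here. Its signal was 9.93, 10.02 and 10.01 with ANRIL siRNA and 10.07, 10.13 and 10.02 with control siRNA (−0.09 ± 0.06), and it stood −0.01 from its neighbours in signal. DNAJB9, an XBP1 target and BiP co-chaperone also called ERdj4, had 11.34, 11.46 and 11.31 with ANRIL siRNA and 11.16, 11.29 and 11.31 with control siRNA. The difference was 0.12 ± 0.07 (95% interval −0.04 to 0.27, limma adjusted p = 0.389), control siRNA replicate 1 being the lowest array. All 3 of its probe sets were above 0, and it exceeded 99.6% of the 500 genes nearest in signal, by 0.20 over their median.

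Genes of ER-associated degradation in this branch showed small values. EDEM1, a lectin that sends misfolded glycoproteins to degradation, had 9.08, 9.12 and 9.13 with ANRIL siRNA and 9.09, 9.10 and 9.02 with control siRNA (0.04 ± 0.06). DERL1 (0.03 ± 0.06) and DERL2 (−0.01 ± 0.07), membrane proteins of the export channel, overlapped between groups, and each had probe sets on both sides of 0. The co-chaperones DNAJB11 (−0.03 ± 0.06) and DNAJC3 (−0.01 ± 0.06) and the disulfide isomerase PDIA6 (0.02 ± 0.06) also overlapped. For DNAJC3, however, a dimmer probe set had 7.41, 7.24 and 7.13 with ANRIL siRNA and 7.68, 7.49 and 7.50 with control siRNA, lower on all 3 ANRIL siRNA arrays (−0.30 ± 0.09, limma adjusted p = 0.231 over all 54613 probe sets). All 4 DNAJC3 probe sets were below 0. Against neighbours in signal 7 of the 8 genes stood higher, by a median of 0.07.

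The ATF6 branch, which holds the major ER chaperones, had 7 of 10 genes above 0 and a median of 0.05. HSPA5, encoding BiP, the chaperone that keeps the sensors inactive, had 13.89, 13.84 and 13.85 with ANRIL siRNA and 13.75, 13.78 and 13.77 with control siRNA. The groups did not overlap, ANRIL siRNA being higher, and the difference was 0.10 ± 0.06 (95% interval −0.03 to 0.22, 1.07-fold, limma adjusted p = 0.389). Its second probe set did not overlap either, at 10.53, 10.67 and 10.50 with ANRIL siRNA and 10.32, 10.37 and 10.48 with control siRNA (0.18 ± 0.07). HSPA5 exceeded 99.4% of its neighbours in signal, by 0.14 over their median, and its difference lay between 0.04 and 0.20 under the alternatives run.

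HSP90B1, encoding the chaperone GRP94, stood on the other side of 0. It had 12.56, 12.53 and 12.54 with ANRIL siRNA and 13.05, 12.64 and 12.58 with control siRNA, lower on every ANRIL siRNA array. The difference of −0.21 ± 0.11 (limma adjusted p = 0.331) rested largely on control siRNA replicate 1 and was −0.06 without it. Both of its probe sets carry the suffix _x_at, which marks probes shared with other sequences, so its value may include other transcripts. Its dimmer probe set differed by −0.07 and overlapped between groups.

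CALR, the lectin chaperone calreticulin, had 12.07, 12.12 and 11.95 with ANRIL siRNA and 11.98, 11.96 and 11.92 with control siRNA (0.09 ± 0.06), with ANRIL siRNA replicate 3 inside the control siRNA range. Its probe sets disagreed. That of rank 2 in brightness was higher on every ANRIL siRNA array (0.14 ± 0.07), while the dimmest, the only one without an _x_at suffix, was lower on every ANRIL siRNA array, at 7.17, 7.29 and 7.13 with ANRIL siRNA and 7.32, 7.33 and 7.53 with control siRNA (−0.19 ± 0.08). SDF2L1, an ER protein that works with BiP and its co-chaperones, had 9.70, 9.80 and 9.74 with ANRIL siRNA and 9.42, 9.57 and 9.80 with control siRNA (0.15 ± 0.09). Its control siRNA arrays held both the lowest and the highest of the 6 values, and the difference was 0.25 without control siRNA replicate 3 and 0.06 without control siRNA replicate 1. SEL1L, the adaptor of the HRD1 ubiquitin ligase in ER-associated degradation, was above 0 at all 4 probe sets (0.07 ± 0.06 at the brightest), and exceeded 99% of its neighbours in signal.

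MANF, a secreted ER stress protein, had 12.48, 12.57 and 12.46 with ANRIL siRNA and 12.37, 12.47 and 12.48 with control siRNA (0.06 ± 0.06), exceeding 98% of its neighbours. CRELD2 (0.04 ± 0.07), also an ER stress protein, and HERPUD1 (0.02 ± 0.06), a membrane component of ER-associated degradation, overlapped between groups with small positive values. The chaperone HYOU1 (−0.03 ± 0.06) and the disulfide isomerase PDIA4 (−0.01 ± 0.06) had small negative ones. HSP90B1 was the only gene of the branch below its neighbours in signal. The other 9 were above theirs, and the median over the branch was 0.13. The branch median of 0.05 was 0.01 without ANRIL siRNA replicate 2 and 0.01 without control siRNA replicate 1.

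Of the 3 folding genes given no branch, CANX, the membrane lectin chaperone calnexin, had 13.27, 13.32 and 13.27 with ANRIL siRNA and 13.20, 13.24 and 13.23 with control siRNA. The groups did not overlap, ANRIL siRNA being higher (0.06 ± 0.06, limma adjusted p = 0.575). Its other 4 probe sets were below 0, and those of rank 2 and rank 4 in brightness were lower on every ANRIL siRNA array (−0.13 ± 0.07 and −0.14 ± 0.06). The mean over the CANX probe sets differed by −0.05, so the direction of CANX depends on the probe set. PDIA3, the glycoprotein disulfide isomerase, had 11.72, 12.01 and 11.83 with ANRIL siRNA and 11.65, 11.90 and 11.83 with control siRNA (0.06 ± 0.09), and its 2 dimmer probe sets were below 0. DNAJC10, the co-chaperone ERdj5, overlapped between groups (−0.08 ± 0.07) and exceeded 53% of its neighbours in signal. Its probe set of rank 2 in brightness was lower on every ANRIL siRNA array (−0.21 ± 0.08), while the dimmest of its 5 was above 0 (0.20 ± 0.09) with overlap.

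**Figure D3:**
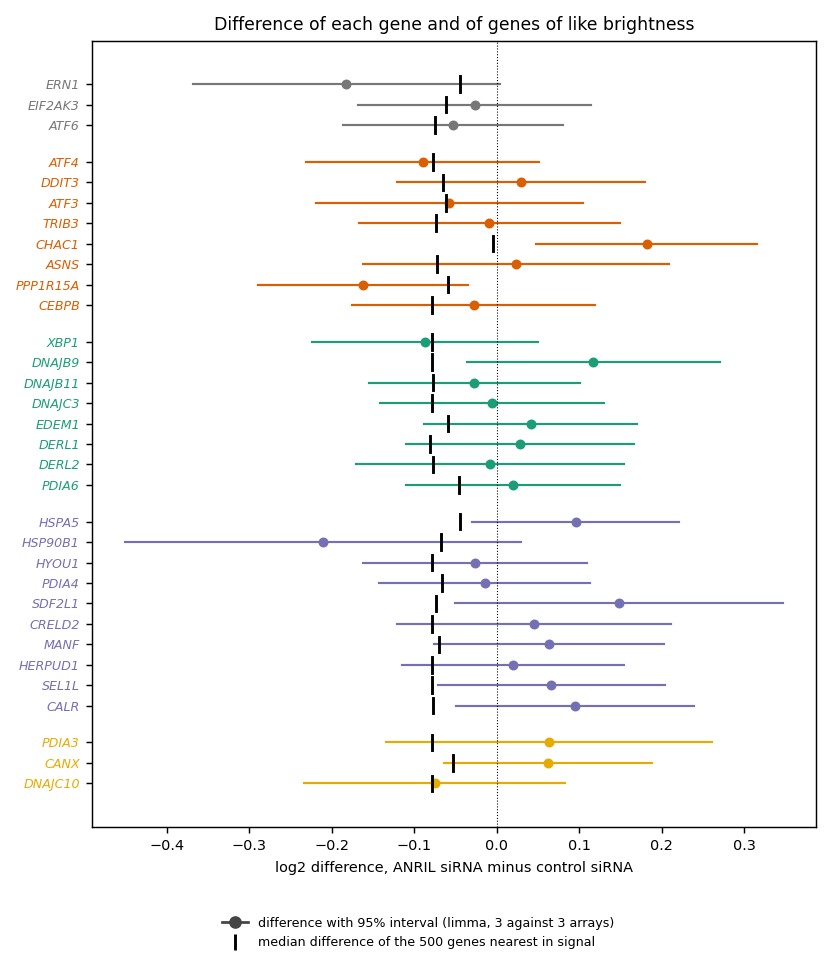
Log2 difference of each of the 32 genes, ANRIL siRNA minus control siRNA (points), with its 95% interval from limma, 3 against 3 arrays. The black bar in each row is the median difference of the 500 genes nearest in signal. Intervals of CHAC1 and PPP1R15A leave out 0 before adjustment, and 27 of 32 points lie to the right of their bar.

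Set side by side, the 3 branches had medians of −0.02 (PERK-ATF4), 0.01 (IRE1-XBP1) and 0.05 (ATF6) in the deposited values. Relative to genes of like brightness they were 0.06, 0.07 and 0.13, and after cyclic loess 0.06, 0.08 and 0.13. Both steps take out the same trend with signal on the same arrays, so the 2 sets of medians are not separate support. No test was made of these medians. In the deposited values, the spread of a branch's median between single arrays of 1 group (SD) was 0.06, 0.02 and 0.04. This SD is not the error of a group difference, nor of the like-brightness or cyclic loess medians. Genes with ERSE or ERSE-II had 7 of 10 above 0 (median 0.03), and those read with a window but neither element had 7 of 20 (median −0.01). Relative to genes of like brightness the medians were 0.11 with and 0.06 without the element, and HSP90B1 and XBP1 were the 2 element-bearing genes below their neighbours.

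Single arrays stood apart for many members. Within the ANRIL siRNA group, replicate 2 was the highest array for 23 of 32 members, and within the control siRNA group, replicate 1 was the lowest for 23. The median over the members, as deviation from each gene's mean over 6 arrays, was −0.01, 0.04 and −0.02 on the ANRIL siRNA arrays and −0.04, 0.03 and 0.00 on the control siRNA arrays. The array medians of the members therefore overlapped between groups, and replicate 2 stood highest in both. In the deposited values, 12 of 32 members lay above 0 without ANRIL siRNA replicate 2, and 9 did without control siRNA replicate 1. In those 2 settings 53.1% and 53.6% of all genes lay below 0, while on all 6 arrays 87.7% of the 1978 brightest did. After cyclic loess with the trended prior, chosen after the data had been seen, 27 or 28 of 32 members lay above 0 with any 1 array left out. There 46.1% to 47.2% of all genes lay below 0.

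**Figure D4:**
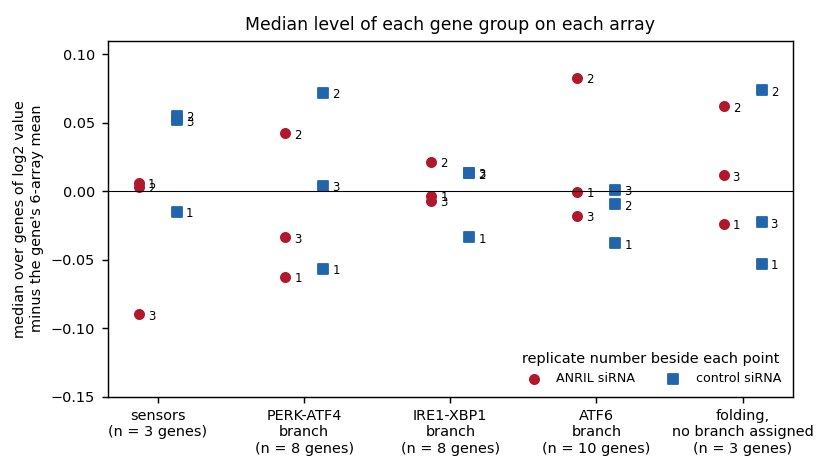
Median over the genes of each group of the log2 value minus the gene's mean over 6 arrays (y axis), for each array, ANRIL siRNA as circles left of control siRNA as squares, with replicate numbers. The groups overlap in the PERK-ATF4, IRE1-XBP1 and ATF6 branches, and in the ATF6 branch ANRIL siRNA replicate 2 stands highest, at 0.08.

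Probe sets of the same gene often differed in sign. The 32 genes had 75 probe sets, of which 0 passed the limma test over all 54613 probe sets (smallest adjusted p = 0.231, 8 of the 75 having an unadjusted p under 0.05, against 15.1% of all probe sets). Of 22 members with several probe sets, 8 had them all on the same side of 0, namely ATF6, XBP1, DNAJC3, HSP90B1 and PPP1R15A below 0 and HSPA5, DNAJB9 and SEL1L above 0. The other 14 had both signs. When probe sets named _s_at or _x_at were dropped, 28 members were read, 9 above 0 and 19 below. CALR then stood at −0.19 and CANX at −0.03. Of the 17098 genes then read, 46.3% lay below 0. With all probe sets kept, 78.8% of genes at or above the members' lowest percentile of signal lay below 0.

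Beyond the 33 genes, 100 of 106 listed genes of the wider pathway were read, 35 above 0 and 65 below (median −0.03), and none passed. Against genes of like brightness the split ran the other way, with 73 of 100 higher, by a median of 0.04. At an unadjusted p under 0.05 there were 2 above and 10 below among the 100, where all genes gave 9.83% above and 8.16% below. These lists are mostly bright, with median percentiles of signal from 82.2 to 95.9. With the fit confined to the 9887 genes above the median signal, 441 were higher and 1972 lower at that p. Apart from GARS1, genes named from these lists are the 4 of smallest p in each, a choice that favours groups without overlap. Over all genes the groups did not overlap at 10.6% higher and 12.8% lower. Other ER folding and oxidation genes had 4 of 18 above 0 (median −0.05), led by ERO1B, an oxidase that recharges disulfide isomerases. It had 6.81, 6.89 and 6.84 with ANRIL siRNA and 6.57, 6.67 and 6.66 with control siRNA, with no overlap (0.21 ± 0.06, limma adjusted p = 0.167). SIL1, a nucleotide exchange factor of BiP (−0.12 ± 0.06), UGGT1, the glycoprotein folding sensor (−0.11 ± 0.06), and the J-domain protein DNAJC1 (−0.14 ± 0.09) were the next by p. Against neighbours in signal 13 of the 18 stood higher, by a median of 0.02.

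Other genes of ER-associated degradation had 8 of 18 above 0 (median −0.02), and 14 of 18 above their neighbours in signal, by a median of 0.06. HERPUD2, the relative of HERPUD1, had 10.25, 10.14 and 10.07 with ANRIL siRNA and 10.32, 10.42 and 10.30 with control siRNA, lower on every ANRIL siRNA array (−0.20 ± 0.07). EDEM2 was also lower on every ANRIL siRNA array (−0.15 ± 0.07), DERL3 was higher on every one (0.16 ± 0.06), and TMUB1 overlapped (0.12 ± 0.07). Of 26 further ATF4 targets and amino acid genes, 13 lay above 0 and the median was 0.00103, while 19 stood above their neighbours in signal, by a median of 0.07. CTH, which makes cysteine from cystathionine, had values between 6.35 and 6.60 with ANRIL siRNA and between 6.54 and 7.05 with control siRNA, with overlap (−0.32 ± 0.12). The serine synthesis gene PSPH (−0.18 ± 0.07), the stress cytokine gene GDF15 (−0.16 ± 0.07) and the tRNA exporter gene XPOT (−0.13 ± 0.06) were lower on every ANRIL siRNA array.

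The eIF2 kinases other than PERK stood below 0 together, as did 84.2% to 89.8% of the 500 genes nearest each in signal. Against the median of those neighbours they stood at −0.18 (EIF2AK2), −0.11 (EIF2AK1) and −0.10 (EIF2AK4). EIF2AK2, the double-stranded RNA kinase PKR, had 9.43, 9.40 and 9.31 with ANRIL siRNA and 9.63, 9.74 and 9.53 with control siRNA, with no overlap (−0.25 ± 0.07, 1.19-fold, limma adjusted p = 0.163). EIF2AK1, the heme-regulated kinase (−0.18 ± 0.06), and EIF2AK4, the amino acid sensor GCN2 (−0.17 ± 0.06), were also lower on every ANRIL siRNA array, whereas EIF2AK3 overlapped between groups. Over all genes 12.8% were lower with no overlap, and EIF2AK2, EIF2AK1 and EIF2AK4 were named for their small p. They have 3, 2 and 2 probe sets, of which only the brightest is given here. With the trended robust prior EIF2AK2 (limma adjusted p = 0.0305) and EIF2AK1 (limma adjusted p = 0.048) fell, as did GDF15 (limma adjusted p = 0.0384), in the deposited values, where 2.15% of all genes were called lower. These 3 calls were not made after cyclic loess with the same prior on all 6 arrays, when GARS1, a glycyl-tRNA synthetase gene of the ATF4 list, rose (0.15 ± 0.03, limma adjusted p = 0.0476). With the fit confined to genes above the median signal, EIF2AK2 also fell (limma adjusted p = 0.0458), where 2.57% of genes tested were called lower and 0.556% higher. In their list of kinases, phosphatase subunits and stress transducers 1 of 17 genes lay above 0 (median −0.07), PPP1CA, a catalytic phosphatase subunit, being at −0.14 ± 0.06, and 9 of 17 stood above their neighbours in signal.

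Genes of the translocon and of ER export had 9 of 21 above 0 (median −0.00467). SEC24D, a coat protein of vesicles that leave the ER, had 10.43, 10.38 and 10.36 with ANRIL siRNA and 10.81, 10.65 and 10.50 with control siRNA, lower on every ANRIL siRNA array (−0.26 ± 0.08, limma adjusted p = 0.17). It fell with the trended robust prior in the deposited values (limma adjusted p = 0.0255) but was not called after cyclic loess with that prior on all 6 arrays. The translocon genes SEC62 (−0.22 ± 0.09) and SSR1 (−0.12 ± 0.07) overlapped between groups, and SRPRA, the signal recognition particle receptor, was higher on every ANRIL siRNA array (0.10 ± 0.06). Over this list 18 of 21 genes stood above their neighbours in signal, by a median of 0.06.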

How the data were processed

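RNA of 3 ANRIL siRNA and 3 control siRNA samples was hybridised to Affymetrix Human Genome U133 Plus 2.0 arrays, 1 array per sample. The deposited values are log2 intensities per probe set, made with RMA and the affy package, with limma also named, per the submitters' processing notes. No version and no filter is given in the sources at hand. RMA corrects background, normalizes probes by quantiles across arrays and summarises each probe set.

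Of 54675 probe sets, 62 are array controls, and the other 54613 entered a linear model in limma 3.58.1 (lmFit, then eBayes, under R 4.3.3) with a constant prior, two-sided, at an adjusted p of 0.05. Of these, 41091 had 1 gene symbol in the platform annotation, which can be old, and 41037 of them matched RefSeq (GRCh38.p14) by gene identifier. Each of 19775 genes was read by its brightest probe set. The calls of the fit were tested on simulated data with seeded changes larger than any member difference. That simulation does not tell whether changes of the members' size would be called. The small number of arrays bounds the precision.

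The members, lists, branches and tests were chosen with earlier results of these data known. The branches follow textbook roles. Named genes were all members and, of each wider list, the 4 of smallest p. GARS1 was named after its values were seen. Protein sequences were not analysed here.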

Additional observations from a re-analysis of the deposited data

How the results depend on the processing

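With the constant prior and deposited values 0 genes, 0 probe sets and 0 members passed, and leaving out any 1 array kept these counts at 0 to 0. The intensity-trended robust prior called 115 genes higher and 426 lower and 29 probe sets higher and 315 lower. Centring arrays on their medians called 1 gene higher, 31 genes lower and 4 probe sets lower, and testing only above the median signal called 55 genes higher, 254 lower and 1 probe set lower. Cyclic loess with the trended prior, chosen after the data were seen, called 59 genes higher and 75 lower, 20 probe sets higher and 58 lower, and 4 members (0 to 5 with 1 array left out, with 2 or 1 in between). The median over all members, 0.00687 as deposited, was 0.0806 after repeated quantile normalization, 0.0832 after cyclic loess and −0.0434 after centring, and −0.0292 to 0.0269 with 1 array left out. For the sensors these were 0.0338, 0.0284 and −0.104 (−0.0744 to −0.022), and for the PERK-ATF4 branch 0.0654, 0.0603 and −0.0693 (−0.0622 to 0.027). For the IRE1-XBP1 branch they were 0.0806, 0.0843 and −0.0434 (−0.0147 to 0.0224), and −0.0178 without _s_at and _x_at probe sets. For the ATF6 branch they were 0.119, 0.133 and 0.00377 (0.0083 to 0.0783). For the folding genes they were 0.119, 0.137 and 0.0116 (−0.014 to 0.0703), 0.00249 with array weights, −0.0457 over the mean of probe sets and −0.0326 without _s_at and _x_at probe sets. The cause of these shifts was not tested.

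With the replicate number as a replicate block, 0 genes and 0 members passed, 2084 genes higher and 1833 lower having an unadjusted p under 0.05. Deviations of same-numbered arrays correlated at 0.04, 0.18 and −0.02, so the numbers were not taken to pair the samples. Signal near the floor limits what can be said of ANRIL itself.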
